A study of Mus musculus with 4 samples.

Results

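The TIM family of T cell immunoglobulin and mucin receptors is represented on the Mouse Genome 430 2.0 array by 4 genes, Timd2 (TIM-2), Havcr1 (TIM-1), Havcr2 (TIM-3) and Timd4 (TIM-4). Members were the 6 probe sets whose single gene symbol in the platform annotation is one of these names, out of 45037 probe sets and 18193 genes named by 1 symbol. The family was chosen by the measured signal of Timd2, known to be low in the deficient cells, so its values in this contrast, and those of the other members, are given as a description without a test. Naive CD4 T cells were sorted from 2D2 Tg mice, whose transgenic T cell receptor recognises a myelin oligodendrocyte glycoprotein peptide, and were either wildtype or miR-146a-deficient. Both groups carried the transgene, and both were stimulated for 3 days with plate-bound anti-CD3 at 5 µg/ml and anti-CD28 at 1 µg/ml. Each group had 2 arrays, called biological replicates; the labels do not say whether these came from separate mice, how the miR-146a allele was made or on which strain, or the age of the mice. Values of p therefore rest on the spread between these samples, which may be technical, and on a variance estimate borrowed from other genes. No probe set is named for the miR-146a gene (0 of 45037), so the deletion could not be checked on the array.

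TIM receptors are membrane proteins with an immunoglobulin-like head on a mucin stalk. TIM-1, TIM-3 and TIM-4 bind phosphatidylserine on dying cells. TIM-1 costimulates T cells, TIM-3 restrains Th1 and exhausted T cells, TIM-4 sits on macrophages and other antigen-presenting cells as a partner of TIM-1, and the rodent receptor TIM-2, described on Th2 and B cells, takes up H-ferritin and binds semaphorin 4A. MiR-146a is a microRNA that dampens NF-kB signalling, and its gene, Mir146, lies on the same chromosome as the TIM genes.

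The labels name miR-146a as deficient and give no arm. Its 5p microRNA is shown with its relative from another locus. Both carry the same seed (bases 2 to 8, in capitals). The other arm of miR-146a has a different seed and is not shown. Sequences are from RefSeq, GRCm38.p6. The 5p arm of miR-146a comes from chr11:43374435-43374456, minus strand, and that of miR-146b from chr19:46342790-46342811, plus strand.
mmu-miR-146a-5p: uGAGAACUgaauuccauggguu
mmu-miR-146b-5p: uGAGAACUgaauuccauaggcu
These are the only 2 mature microRNAs with this seed in the RefSeq table used. The labels name a deficiency of miR-146a alone.

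The 250 bases before the annotated start are shown for Timd2, the member with the fall, and for Havcr2, the first gene of the same run. Timd2 has a second annotated start, and its windows lie at chr11:46707105-46707354 (shown) and chr11:46698831-46699080, minus strand; that of Havcr2 lies at chr11:46454681-46454930, plus strand. Capitals mark matches on either strand to 5 motifs, none of which overlapped in the windows shown. The letters searched were TGANTCA for AP-1 factors, GGAAA for NFAT proteins, AGATAA for Gata3 and its relatives, TTCNNNGAA for STAT proteins, and the NF-kB consensus.
Timd2: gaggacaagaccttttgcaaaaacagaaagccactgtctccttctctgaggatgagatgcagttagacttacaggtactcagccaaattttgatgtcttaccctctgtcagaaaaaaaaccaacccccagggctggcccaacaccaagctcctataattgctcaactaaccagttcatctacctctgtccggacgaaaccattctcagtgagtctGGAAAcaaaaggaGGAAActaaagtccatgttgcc
Havcr2: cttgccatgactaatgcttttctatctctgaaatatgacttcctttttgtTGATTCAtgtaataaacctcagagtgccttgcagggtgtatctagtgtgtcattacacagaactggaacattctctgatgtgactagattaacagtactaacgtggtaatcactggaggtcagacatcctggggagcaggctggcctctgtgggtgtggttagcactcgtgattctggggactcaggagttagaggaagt
The Timd2 window held 2 matches to the NFAT letters, which occur in 55.6% of 32851 windows of this length, and none to the others. The second Timd2 window held none of the 5. The Havcr2 window held 1 AP-1 match, a motif found in 6.75% of windows. The Gata3, STAT and NF-kB motifs occur in 9.99%, 7.02% and 7.25% of windows. The Timd4 window held none of the 5, and the 3 Havcr1 windows held 2 NFAT matches and 1 match to the Gata3 motif between them. A match is a stretch of letters only and was not related to binding here.

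Timd2 gave high signals in both wildtype arrays and low signals in both deficient arrays, on each of the gene's 2 probe sets. Probe set 1418765_at read 1170 and 1734 in wildtype replicates 1 and 2 and 117.4 and 116.7 in deficient replicates 1 and 2. Probe set 1418766_s_at read 1506 and 1923 against 105.1 and 87.0. These are MAS5 signals, linear intensities already scaled to the same trimmed mean on every array. The groups were far apart on both probe sets: the lowest wildtype array stood 9.96 times above the highest deficient array on the first and 14.3 times on the second. Between arrays of 1 genotype the signals lay much closer, and the deficient arrays were nearly equal on 1418765_at.

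Group means for Timd2 were 1452 ± 399 and 117.1 ± 0.47 (SD, n = 2 arrays each) on 1418765_at, a ratio of mean signals of 12.4. On 1418766_s_at they were 1714 ± 295 and 96.1 ± 12.8 (SD, n = 2), a ratio of 17.8. As log2(signal + 14.7), with deficient minus wildtype throughout, the differences were -3.45 ± 0.20 and -3.96 ± 0.17 (SE). They rank as the 2 lowest of all 45037 probe sets and are the only 2 at -3 or below, which is 0.00444% of the table. The next lowest, a probe set shared by Xlr3b, Xlr3c and Xlr3a, differed by -2.18. Leaving out each array in turn gave -3.73 to -3.17 for 1418765_at and -4.13 to -3.78 for 1418766_s_at. The suffix of 1418766_s_at marks a probe set that can match more than 1 transcript, and the annotation names Timd2 alone for it. The ratio of the first to the second probe set was 0.777 and 0.902 in wildtype arrays and 1.12 and 1.34 in deficient arrays. Deficient cells still gave Timd2 signals above the 29.9 that corresponds to the filter on dim probe sets, but detection calls were not used here, so a remnant of transcript and background cannot be told apart.

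**Figure D1:**
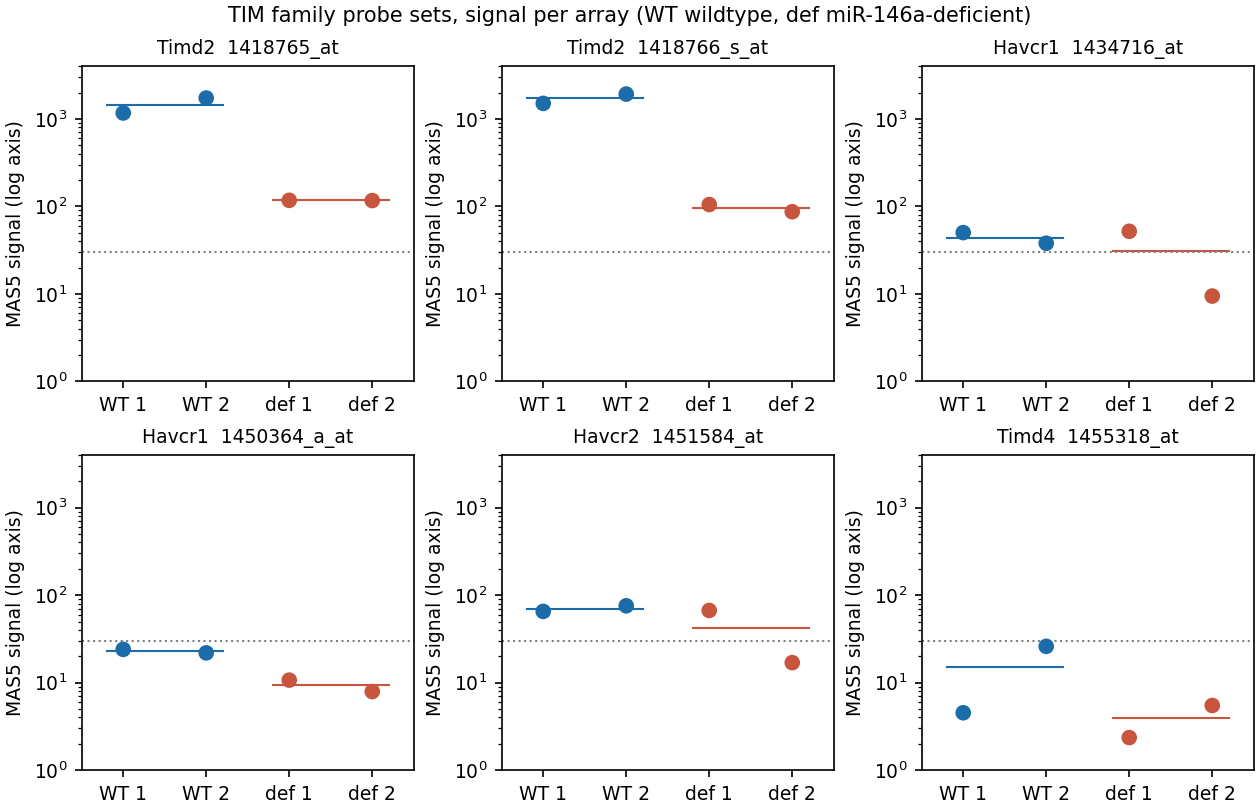
MAS5 signal (log axis) of each TIM family probe set on each of the 4 arrays, wildtype (WT) in blue and miR-146a-deficient (def) in red, with group means as bars and the signal of 29.9 that corresponds to the filter dotted. Both Timd2 probe sets fall from 1170 or more to 117.4 or less, while the other members stay at 75.6 or less in every array.

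**Figure D2:**
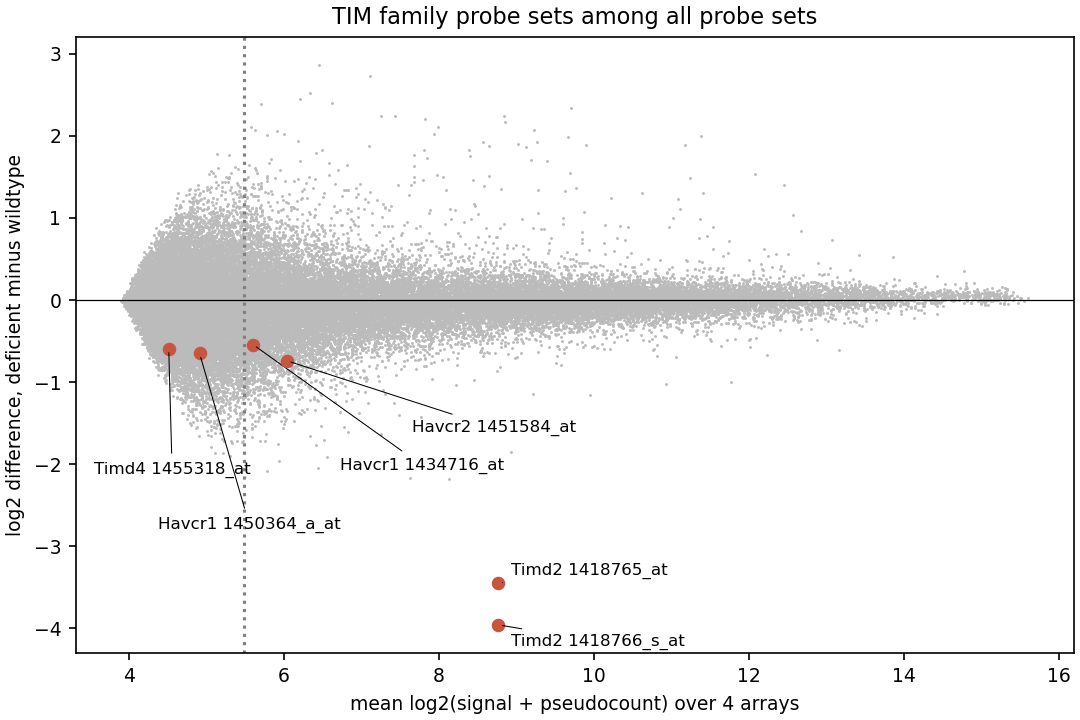
Log2 difference (deficient minus wildtype) against mean log2(signal + 14.7) for all 45037 probe sets in grey, TIM family probe sets in red, filter dotted. The Timd2 probe sets lie at -3.45 and -3.96, apart from every other probe set, and the other 4 lie within the cloud.

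Havcr1, which encodes the costimulatory receptor TIM-1, gave low signals that did not separate the groups on its brighter probe set. Probe set 1434716_at read 50.2 and 38.0 in wildtype and 52.0 and 9.45 in deficient replicates 1 and 2. The highest and the lowest of these values were both from deficient arrays, so the groups overlapped. The difference was -0.54 ± 0.55 (SE), and without deficient replicate 2 it was 0.19. Probe set 1450364_a_at read 24.0 and 21.9 against 10.7 and 7.92, where the groups did not overlap and the difference was -0.65 ± 0.32 (SE). Among all probe sets 20.2% did not overlap with the deficient arrays lower. This probe set lay below the filter, at a mean log2 of 4.91 against 5.48.

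Havcr2, which encodes the inhibitory receptor TIM-3, was low in all arrays and lowest in 1 deficient array. Its probe set 1451584_at read 65.2 and 75.6 in wildtype and 66.9 and 16.9 in deficient replicates 1 and 2. Deficient replicate 1 lay between the wildtype arrays, so the groups overlapped. The means were 70.4 ± 7.3 and 41.9 ± 35.3 (SD, n = 2), and the difference was -0.74 ± 0.52 (SE). Without deficient replicate 2 it was -0.06. That array stood 1.34 below the lowest of the other 3 on the log2 scale for Havcr2 and 1.12 below for Havcr1 1434716_at. A gap of at least 1 in this array occurred in 0.663% of the 12821 tested genes, and in 0.281% to 0.601% for the other arrays.

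Timd4, which encodes the phosphatidylserine receptor TIM-4, was close to the bottom of the scale. Its probe set 1455318_at read 4.53 and 26.0 in wildtype and 2.36 and 5.49 in deficient replicates 1 and 2. Wildtype replicate 2 was high and the other 3 arrays were low, so the groups overlapped. The difference was -0.59 ± 0.39 (SE), with -0.05 when wildtype replicate 2 was left out. The mean log2 of 4.51 is below the filter.

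Of the 4 members, 3 had a probe set past the filter, and of the 6 probe sets, 4. All 6 differences were below 0, including those of Timd2, by which the family was chosen. The share of all probe sets below 0 was not counted. Wildtype replicate 1 had a lower quartile of signals of 17.7, against 13.6 to 14.1 in the other arrays. Its part in the differences of the dim members was not tested. Timd2 was the only member whose arrays did not overlap between genotypes on every one of its probe sets. The 3 members other than Timd2 ranked from 1922 to 3998 from the lowest difference among the 45037 probe sets.

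The 4 TIM genes stand side by side on chromosome 11. In the GRCm38.p6 gene order the run reads Havcr2, Timd2, Havcr1 and Timd4, with 8 further genes or pseudogenes in between, and 15 tested genes lie between Mir146 and Havcr2. Within the run the tested gene BC053393 read 80.4 and 44.1 in wildtype and 37.8 and 53.7 in deficient arrays, which overlap. The 10 tested genes on each side of the run were compared with limma's moderated test, adjusted by Benjamini-Hochberg over 12821 genes. Of these 20, 0 were called higher and 0 lower at an adjusted p of 0.05, where 0.179% of all tested genes were called in either direction. At an unadjusted p below 0.05 there were 5 of 20, against 5.26% of all tested genes. Wildtype and deficient arrays lay apart in 10 of 20, against 33.6%. Their median difference was -0.04, from -0.64 to 0.86, beside -0.01 for all tested genes.

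Med7, a Mediator subunit gene and the nearest tested gene before Havcr2, read 1940 and 1933 in wildtype and 1549 and 1542 in deficient arrays. Those groups lay apart, and the difference of -0.32 ± 0.10 did not pass (limma adjusted p = 0.638). Thg1l, which encodes a tRNA-modifying enzyme, read 470 and 428 against 273 and 294, likewise without overlap, with a difference of -0.64 ± 0.15 (limma adjusted p = 0.350). Lsm11, a histone RNA processing gene, and Zfp62, a zinc finger gene, differed by -0.58 ± 0.21 and -0.51 ± 0.18 (limma adjusted p = 0.786 and 0.794). Lsm11 passed when deficient replicate 1 was left out (-0.94, limma adjusted p = 0.0317), with 1 deficient array left that is assumed to vary like the wildtype pair. Trim41, the nearest tested gene after Timd4, differed by -0.03 ± 0.14. These values are from the brightest probe set of each gene. With the mean of all probe sets Trim41, Thg1l, Lsm11 and Zfp62 differed by -0.39, -0.36, -0.59 and -0.37, and Med7 stayed at -0.32. Ebf1, a B cell transcription factor named after its values were seen, read 39.7 and 43.0 against 84.8 and 88.7 and was the highest of the 20.

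**Figure D3:**
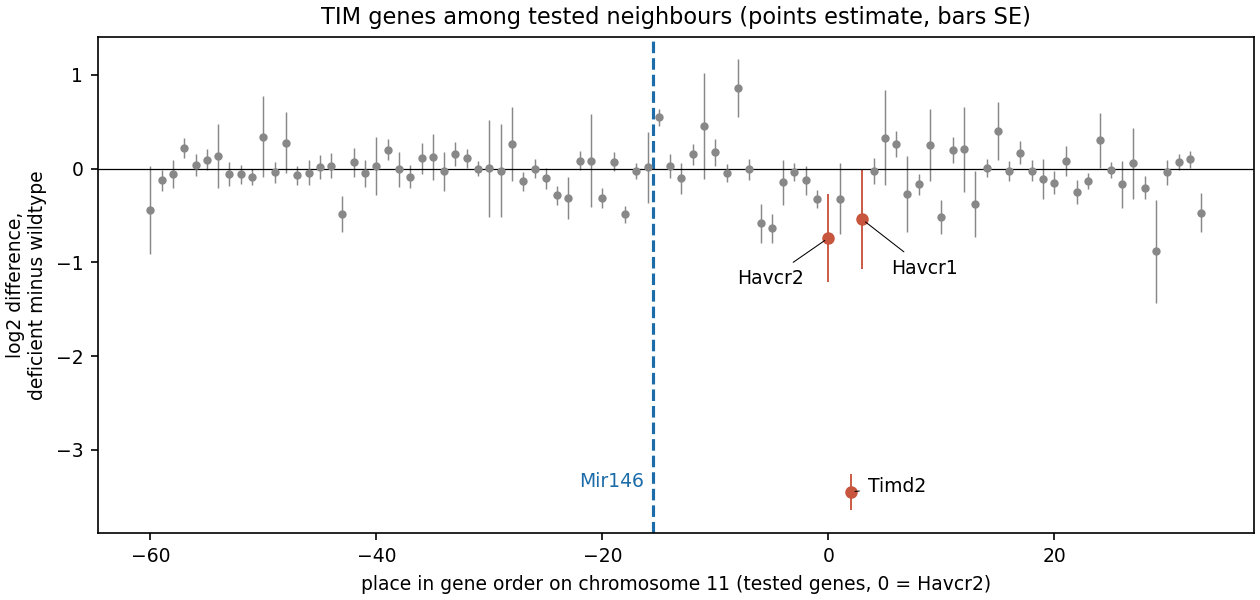
Log2 difference (deficient minus wildtype, bars SE) of tested genes in their order on chromosome 11, with Havcr2 at 0, TIM genes in red and the place of Mir146 dashed. Timd2 at -3.45 lies far below its neighbours, which include Havcr2 at -0.74 and Havcr1 at -0.54.

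Genes whose 4 array values most resemble those of Timd2 were sought by Euclidean distance on the log2 scale, each gene centred on its mean, among the 12821 tested genes. The 5 nearest were Mov10l1, Slc16a8, Nat8, Adam1b and Klhdc8b, at distances of 1.79 to 2.08. Low values in both deficient arrays are what this search selects, and the differences of these 5 were -1.96 to -1.48. In the deficient arrays all 5 read 26.4 or less, under the signal of 29.9 that corresponds to the filter. They passed the filter only through their wildtype arrays. Mov10l1 read 76.4 and 80.8 in wildtype and 18.1 and 9.88 in deficient arrays, and Slc16a8 read 94.8 and 98.0 against 26.4 and 11.7. For Havcr2 the 5 nearest, Scnn1b, Fgf3, B4galt2, Cd33 and Kazald1, lay at distances of 0.037 to 0.144. Each of them was lowest in deficient replicate 2, as Havcr2 was, which is again what the search selects.

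Genes linked to the TIM receptors were counted in 5 lists, which together have 53 genes on the array and 48 tested. Limma called 0 of the 48 higher and 0 lower at an adjusted p of 0.05, against 0.179% of all tested genes. At an unadjusted p below 0.05 stood 6 (2 higher and 4 lower), against 5.26%. The median difference of the 48 was -0.01. Without wildtype replicate 1, Il5, Il4, Ctla4 and Pros1 were called lower (-0.87, -0.70, -0.73 and -0.83), where 1 wildtype array was left and is assumed to vary like the deficient pair, which alone gave the spread.

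Of the TIM-2 ligands and linked receptors, 8 of 8 tested genes missed the threshold, with a median difference of -0.07. Sema4a, the semaphorin that binds TIM-2, was 754 ± 113 in wildtype and 598 ± 123 in deficient cells (SD, n = 2), a difference of -0.33 ± 0.17 with overlapping arrays. Fth1, which encodes the H-ferritin subunit that TIM-2 takes up, was 14215 ± 405 against 15154 ± 315, a difference of 0.09 ± 0.08. The semaphorin receptor genes Plxnb3 and Nrp1 differed by -0.49 ± 0.24 and -0.16 ± 0.14. Over the 8 genes the differences ran from -0.49 to 0.10. With the mean of all probe sets Sema4a, Fth1, Plxnb3 and Nrp1 differed by -0.09, 0.16, -0.33 and -0.25.

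Ligands and partners of TIM-3 had 4 tested genes and no call, with a median difference of -0.12. Lgals9, which encodes the ligand galectin-9, was 1406 ± 19 against 1525 ± 20 (SD, n = 2), a difference of 0.12 ± 0.10. Ceacam1, a further ligand gene, differed by -0.30 ± 0.35, and the kinase gene Fyn and the adaptor gene Bag6, which act on the TIM-3 tail, by -0.18 ± 0.12 and -0.06 ± 0.13. Hmgb1 and Lck had no probe set with a single symbol and were not analysed here.

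Regulators of Havcr2 and receptors often found with TIM-3 on the same cells had 11 tested members and no call, with a median difference of 0.14. Lag3, an inhibitory receptor gene, was 652 ± 185 against 992 ± 306 (SD, n = 2), with overlapping arrays and a difference of 0.59 ± 0.24 (limma adjusted p = 0.909). Tbx21, which encodes the Th1 factor T-bet that activates Havcr2, differed by 0.21 ± 0.11. Nfil3, a further activator of Havcr2, and the cytokine gene Il10 differed by -0.15 ± 0.11 and 0.67 ± 0.56.

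Other genes of phosphatidylserine recognition had 16 tested members and no call, with a median difference of 0.07. Pros1, which encodes protein S, a bridge to the TAM receptors, was 957 ± 220 against 625 ± 99 (SD, n = 2), a difference of -0.59 ± 0.18 (limma adjusted p = 0.626). The phosphatidylserine receptor gene Cd300lf differed by 0.56 ± 0.24, the integrin gene Itgb5 by -0.27 ± 0.18 and the annexin gene Anxa5 by 0.12 ± 0.09.

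Th2 genes, the setting in which TIM-2 has been described on T cells, had 11 tested members and no call; 9 were below 0, with a median difference of -0.23. In 5 of 11 the deficient arrays lay below the wildtype arrays without overlap and in 0 above, where 33.6% of all tested genes did not overlap in either direction. Il5, an eosinophil growth factor gene, was 6109 ± 1233 against 3817 ± 335 (SD, n = 2), a difference of -0.66 ± 0.14 (limma adjusted p = 0.226). Gata3, the Th2 master regulator, differed by -0.34 ± 0.09, and the cytokine genes Il4 and Il13 by -0.48 ± 0.14 and -0.23 ± 0.10.

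**Figure D4:**
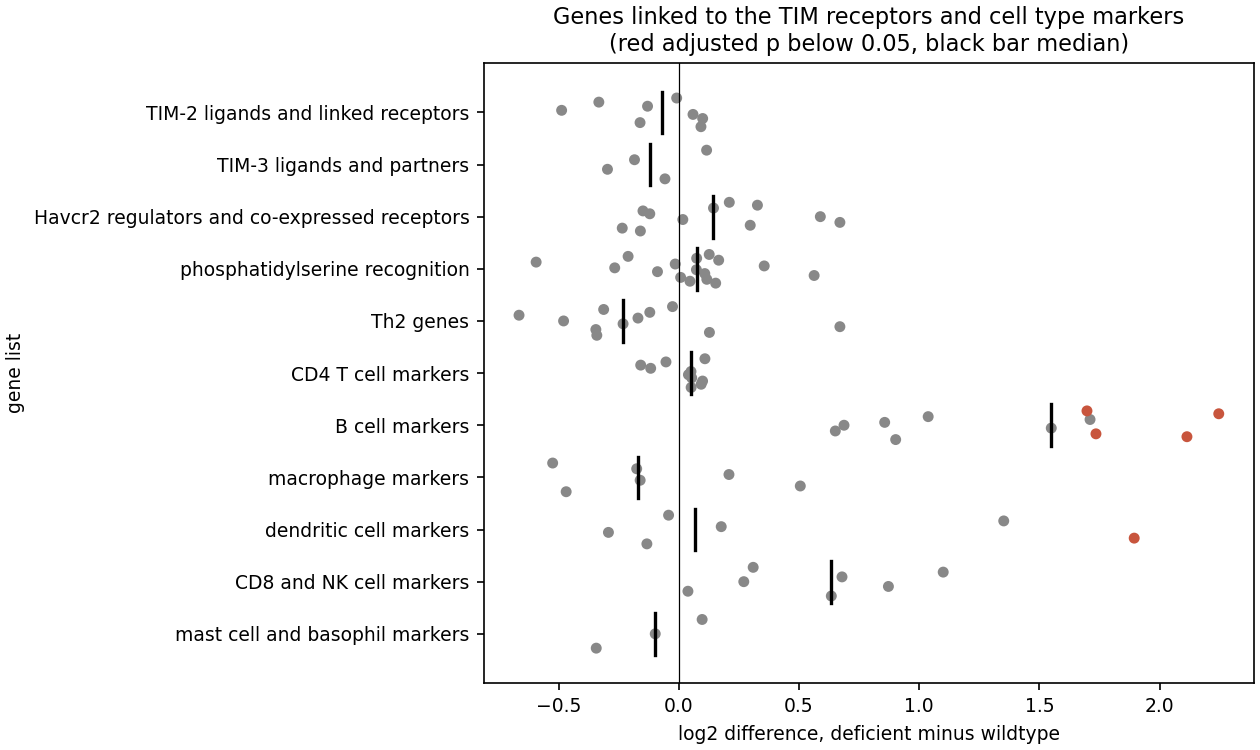
Log2 differences (deficient minus wildtype) of tested genes linked to the TIM receptors and of cell type markers, 1 point per gene, red where the limma adjusted p is below 0.05, black bars at list medians. No TIM-linked gene is red, and the red points are 4 B cell markers and 1 dendritic cell marker.

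T cell identity was measured alongside, since TIM-4 and TIM-2 are also made by other cells. All 10 tested CD4 T cell markers missed the threshold (median difference 0.05), and their summed signal ran from 63153 to 72976 in wildtype and from 66519 to 71735 in deficient arrays. Of 11 tested B cell markers, 4 were called higher, against 0.172% of all tested genes, and 11 did not overlap, against 33.6%. Their median difference was 1.55. Signals of all 13 B cell markers on the array summed to 5055 to 7402 in wildtype and 14606 to 14952 in deficient arrays. Most of each sum was Ighm, at 3502 and 5061 against 9064 and 8271, which was not called (limma adjusted p = 0.0568). Ms4a1, the CD20 gene, differed by 2.25 ± 0.20 (limma adjusted p = 0.00554), and the other called markers, Blnk, Cd22 and Pou2af1, by 2.11, 1.74 and 1.70. Cr2 passed the filter only through its deficient arrays. It read 32.9 and 12.4 in wildtype (mean 22.7, under 29.9) and 47.7 and 39.0 in deficient arrays. Pax5 and Fcrla lay below the filter. Pax5 went the other way, with 68.9 and 23.9 in wildtype and 11.3 and 21.9 in deficient arrays, without overlap. Fcrla read 40.7 and 16.1 against 30.1 and 21.5, which overlap. All 4 calls were lost without a filter and without the intensity trend (limma adjusted p for Ms4a1 of 0.0842 and 0.414), and those of Cd22 and Pou2af1 also with the mean of probe sets (0.385 and 0.0745) and without deficient replicate 2 (0.117 and 0.0791); Pou2af1 lost its call with a pseudocount of 1 (0.0551) and when every probe set was tested (0.0532) as well. The 11 tested B cell markers moved opposite to Timd2 and Pax5 did not, and the part of these markers in the Timd2 values was not tested. In bulk RNA, fewer cells of a type and less RNA per cell cannot be told apart. Macrophage markers, the usual company of Timd4, summed to 624 to 675 in wildtype and 604 to 626 in deficient arrays; 6 of 11 passed the filter, 0 were called (0 at an unadjusted p below 0.05), and Marco, Mrc1 and Cd14 read under 13 in every array. Dendritic cell markers summed to 9316 to 10418 against 11322 to 11968. The brightest were Batf3, at 4151 to 5634 over all arrays, and Cd83, at 3370 to 4670, and both overlapped between genotypes. Of 6 tested, 1 was called, Ccl22 (1.89 ± 0.16), a call lost without a filter and without the trend (limma adjusted p = 0.0700 and 0.414). At an unadjusted p below 0.05 stood 2 of the 6, against 5.26% of all tested genes. Fscn1 read 320 and 218 in wildtype and 597 and 815 in deficient arrays, without overlap. It differed by 1.35 ± 0.22 and missed the threshold (limma adjusted p = 0.0720), but passed after median centring (limma adjusted p = 0.00355). Below 0 were 3 of the 6, and the median difference was 0.07. Xcr1, below the filter, read up to 49.7 in wildtype and 4.99 and 7.37 in deficient arrays, without overlap. CD8 and NK cell markers summed to 3092 to 3349 against 4020 to 4691. Of 7 tested, 0 were called, and all 7 were above 0 with a median of 0.63. An unadjusted p below 0.05 was found for 3, against 5.26% of all tested genes, and 5 did not overlap, against 33.6%. Klrk1 differed by 1.10 ± 0.23 (limma adjusted p = 0.237) and passed after median centring (limma adjusted p = 0.0335). Mast cell and basophil markers summed to 212 to 246 against 165 to 259, with 0 of 3 called (0 at an unadjusted p below 0.05). The 3' to 5' signal ratio of the transferrin receptor control, a sign of RNA quality, was 2.40 and 2.74 in wildtype and 1.92 and 2.23 in deficient arrays. That of Gapdh was 0.7783 and 0.8080 against 0.7457 and 0.7781, and that of beta-actin 1.17 and 1.30 against 1.14 and 1.25. The groups overlapped for beta-actin only. For the transferrin receptor and, by a small margin, for Gapdh the deficient arrays lay lower without overlap. The part of RNA quality in the Timd2 values was not tested.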

How the data were processed

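The deposited table holds an intensity on a linear scale, the MAS5 signal, for each probe set on each array; per the submitters' processing notes MAS5 and the Transcriptome Analysis Console were used, with versions not given in the sources used here. Biotinylated cRNA was made from 100 ng of RNA, per the labels. Every array has a 2% trimmed mean of 500.004. Of 45101 probe sets, 64 controls were left out, and names come from the platform annotation. Signals were transformed as log2(signal + 14.7), the 25th percentile of all values, which understates folds of dim genes. Per gene the probe set with the highest mean was taken, and 12821 genes at or above the 40th percentile (5.48) were tested with limma 3.58.1 in R 4.3.3 (intensity trend, two-sided, Benjamini-Hochberg, threshold 0.05, 8.60 degrees of freedom, 2 from the arrays). SEs of members come from a fit of every probe set. The fit was tested on simulated data with independent normal noise, where its own assumptions hold. Such data cannot show whether those assumptions hold for these arrays. Named genes were, per list, those called and otherwise those with the smallest p up to 4 (not all are printed for marker lists), the genes beside the run by the same rule with the nearest on each side, and the 5 nearest patterns. BC053393, Cr2, Ctla4, Ebf1, Ighm and the markers below the filter were named after their values were seen. Members and lists were chosen with earlier results of these data known. Alternatives changed the pseudocount, filter, normalization, probe sets, variance prior, replicate block and arrays. The number of arrays limits precision. Gene order is from GRCm38.p6; figures used matplotlib 3.10.9 in Python 3.11.15.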

Additional observations from a re-analysis of the deposited data

How the results depend on the processing

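The direction of Timd2 was the same under all 13 alternatives (25 values, from -4.14 to -3.13). The median of all values as pseudocount gave -3.13 for 1418765_at, -3.57 for 1418766_s_at and -0.29 for Havcr1 1450364_a_at; a pseudocount of 1 gave -1.23 for the latter and -1.39 for Timd4, since these signals are near the pseudocount. Leaving out 1 array gave -3.73 to -3.17 and -4.13 to -3.78 for the Timd2 probe sets, -1.27 to 0.19 and -0.73 to -0.57 for those of Havcr1, -1.42 to -0.06 for Havcr2 and -1.13 to -0.05 for Timd4. Genes called higher over the whole table numbered 22, but 1 without a filter (918 at an unadjusted p below 0.05), 50 after median centring, 13 with the mean of probe sets, 40 when every probe set was tested (with 5 lower) and 0 without the intensity trend (0 lower, 769 at an unadjusted p below 0.05). Leaving out 1 array gave 13 to 68 higher and 3 to 33 lower, 0 to 4 lower among the TIM-linked genes and 0 to 1 lower among the neighbours. The replicate numbers are shared by both genotypes but could not be shown to pair the samples (correlation of deviations 0.05 over 12821 genes); with the number as a block 13 genes were higher, and Cd22 and Pou2af1 missed the threshold (limma adjusted p = 0.0526 and 0.0700). Of 733 values of other named genes under the alternatives, 684 kept direction and side of the threshold, 18 lost a call, 12 gained one and 19 uncalled values changed sign. The low signals of Timd4 and of Havcr1 1450364_a_at, under 29.9 in every array, limit what can be seen there.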
